A study of Mus musculus with 6 samples.

Results

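The guanylate-binding proteins (GBPs) and immunity-related GTPases (IRGs) were described as a set of 10 interferon-inducible genes, namely Gbp2, Gbp3, Gbp5, Gbp7, Gbp8, Gbp9, Irgm1, Igtp, Iigp1 and Ifi47. The set was chosen from measured values of the same contrast, so the differences of its genes between surfaces are given as a description and without a test. Through the platform annotation, 8 of the 10 were matched to a probe set, each with 1, among 19505 measured genes in all. Gbp5 and Ifi47 had no named probe set in the annotation used and were not analysed here. RAW264.7, an established mouse macrophage line, had been grown for 3 days on a modified surface of polyetheretherketone (PEEK), a polymer used for implants, or on the pristine polymer. There were 3 arrays from modified PEEK and 3 from pristine PEEK, which served as the control. The sources used here do not give what the modification consisted of, and neither surface carried a further treatment per the labels. Both groups came from 1 cell line, and the labels do not say that the triplicates were separate cultures, so the p-values cover the spread among these arrays alone, and part or all of it could be technical.

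GBPs are large GTPases of the dynamin superfamily that macrophages make in response to interferons, above all interferon gamma. They assemble on bacteria and on the membranes of pathogen-containing vacuoles, and they help to release bacterial lipopolysaccharide to the noncanonical inflammasome. IRGs are smaller GTPases of which the regulatory kind, Irgm1, Irgm2 and Igtp, sits on endomembranes of the cell, while effector IRGs such as Iigp1 and Ifi47 load onto vacuoles made by parasites and bacteria. Many mouse GBP and IRG promoters hold an interferon-stimulated response element, a gamma-activated site, or both.

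The promoters are shown first, as a description of sequence that does not use the array values. RefSeq windows on GRCm38.p6, running from 250 bases before the transcription start to 50 bases after it, were at hand for 5 of the 8 measured genes, with a pair of start sites for Gbp3. Gbp8, Gbp9 and Iigp1 had no window in the table used. The 110 bases before the start are printed 5′ to 3′ on the strand of the gene, in lower case, with matches to either motif in capitals. The motifs searched on both strands were TTTCNNTTT, the core of the interferon-stimulated response element, and TTCNNNGAA, the gamma-activated site, which reads the same on either strand. The stretches lie at chr3:142620553-142620662 on the plus strand for Gbp2, chr3:142559934-142560043 on the plus strand for the first start site of Gbp3, and chr3:142530226-142530335 on the plus strand for Gbp7. They lie at chr11:48871421-48871530 on the minus strand for Irgm1 and chr11:58199446-58199555 on the plus strand for Igtp. Irgm2, the neighbour of Igtp, is shown for comparison, at chr11:58214867-58214976 on the plus strand.
Gbp2: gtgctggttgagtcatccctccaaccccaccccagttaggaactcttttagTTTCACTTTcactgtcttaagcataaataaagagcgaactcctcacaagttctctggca
Gbp3: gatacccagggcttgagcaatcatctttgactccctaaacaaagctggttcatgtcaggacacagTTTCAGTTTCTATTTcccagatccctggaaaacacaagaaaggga
Gbp7: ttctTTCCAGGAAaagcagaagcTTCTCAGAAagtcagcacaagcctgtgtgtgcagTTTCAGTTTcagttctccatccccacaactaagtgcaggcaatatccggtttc
Irgm1: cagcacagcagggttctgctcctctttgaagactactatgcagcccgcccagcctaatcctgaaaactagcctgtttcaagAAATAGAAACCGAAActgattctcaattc
Igtp: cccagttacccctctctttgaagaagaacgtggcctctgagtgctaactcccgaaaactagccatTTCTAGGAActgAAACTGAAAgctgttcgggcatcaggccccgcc
Irgm2: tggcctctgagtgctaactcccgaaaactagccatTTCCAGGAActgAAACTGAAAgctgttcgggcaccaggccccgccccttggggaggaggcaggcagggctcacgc

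The response element core was found in the windows of 5 of 5 genes of the set, against 3258 of 27025 genes with a window (12.1%). The gamma-activated site was found in 2 of 5, Gbp7 and Igtp, against 2582 of 27025 (9.55%). Both motifs stood in those 2 windows, against 425 of 27025 genes (1.57%). A match is a description of the letters and not evidence of binding. Counted to its first base, the core began 59 bases before the start in Gbp2, 53 in Gbp7 and 33 in Igtp. Gbp3 held overlapping copies at 45 and 39 bases, and its second start site held none. Irgm1 held overlapping copies on the opposite strand, at 29 and 23 bases. The gamma-activated sites lay upstream of the core in each case, at 106 and 87 bases in Gbp7 and at 45 bases in Igtp. Among 5 other genes of these families with a window, 4 held the core and 3 held both motifs. The first bases of the 2 motifs were 12 bases apart in Igtp, in Irgm2 and in Tgtp2, an effector IRG, 15 apart in Gm12250 and 34 apart in Gbp7. Shifted by 30 bases, the stretches of Igtp and Irgm2 matched at 78 of 80 bases (97.5%).

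**Figure D1:**
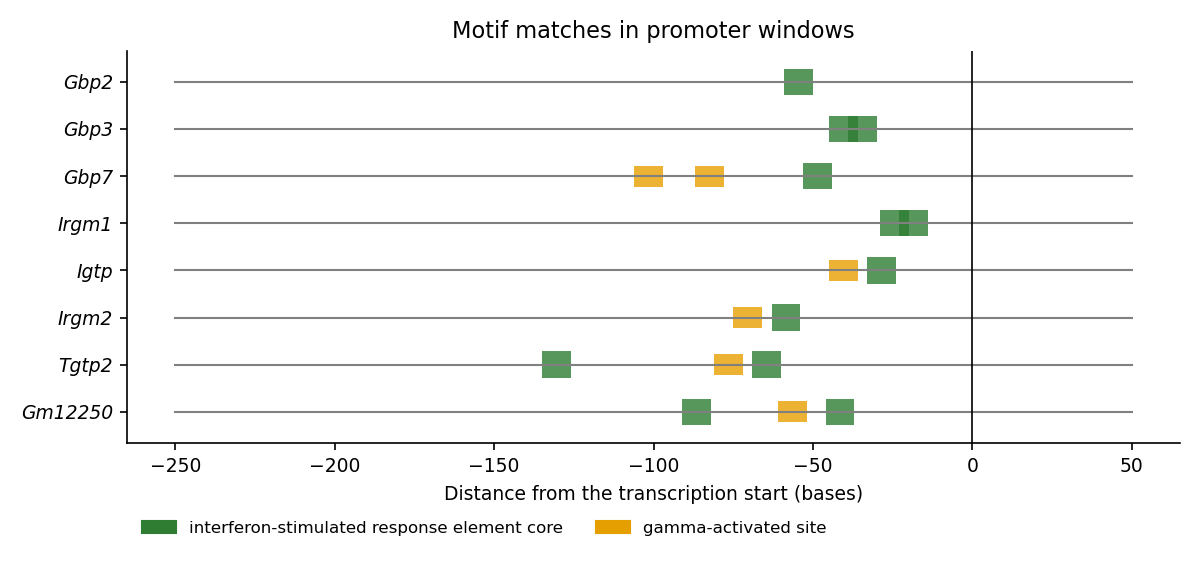
Motif matches in the 300-base promoter windows of 5 described genes and 3 other family genes. The x axis is the distance from the transcription start in bases, green boxes are cores of the interferon-stimulated response element and yellow boxes gamma-activated sites. In the 5 windows that hold both, the yellow box lies upstream of the nearest green one, by 12 bases in Igtp, Irgm2 and Tgtp2.

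The values are log2 signals per probe set, in which a difference of 1 is a doubling. Array medians lay between 4.98 and 5.10. A background of 3.72 was taken from 1410 genes for smell and pheromone receptors (olfactory and vomeronasal), as the 95th percentile of their mean signals. Where the mean on 1 surface lay below it, a fold is given only as a bound, and where both did, none is given. A gene was called where its adjusted p in a limma fit over all genes was under 0.05. By that rule 1004 genes (5.15%) were lower and 1023 (5.24%) higher on modified PEEK. By unadjusted p under 0.05, which is given beside counts of 0, 2218 (11.4%) were lower and 2206 (11.3%) higher. The bulk RNA cannot tell fewer cells making a transcript from less of it per cell. Probe sequences were not used here, so cross-hybridisation between similar family members was not tested.

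On modified PEEK 6 of the 8 measured genes were called lower, 0 were called higher, and Gbp3 and Iigp1 were not called. By unadjusted p under 0.05 in limma, 6 were lower and 1, Iigp1, was higher, beside 11.4% and 11.3% of all genes. The called genes were Gbp2, Gbp7, Gbp8, Gbp9, Irgm1 and Igtp, with differences between -2.14 and -0.57. The same 6 had no overlap between the arrays of the surfaces, where 14.5% of all genes lay lower without overlap. The median difference was -0.68 over the 8 genes and 0.0088 over all genes. Nothing is read from these counts, since the genes were chosen by this contrast. Of the 5 GBPs measured 4 were called, with a median of -0.68, and of the 3 IRGs measured 2 were called, with a median of -0.57. Signal was above background on both surfaces for Gbp7, Gbp8, Irgm1 and Igtp, and on pristine PEEK alone for Gbp2 and Gbp9.

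**Figure D2:**
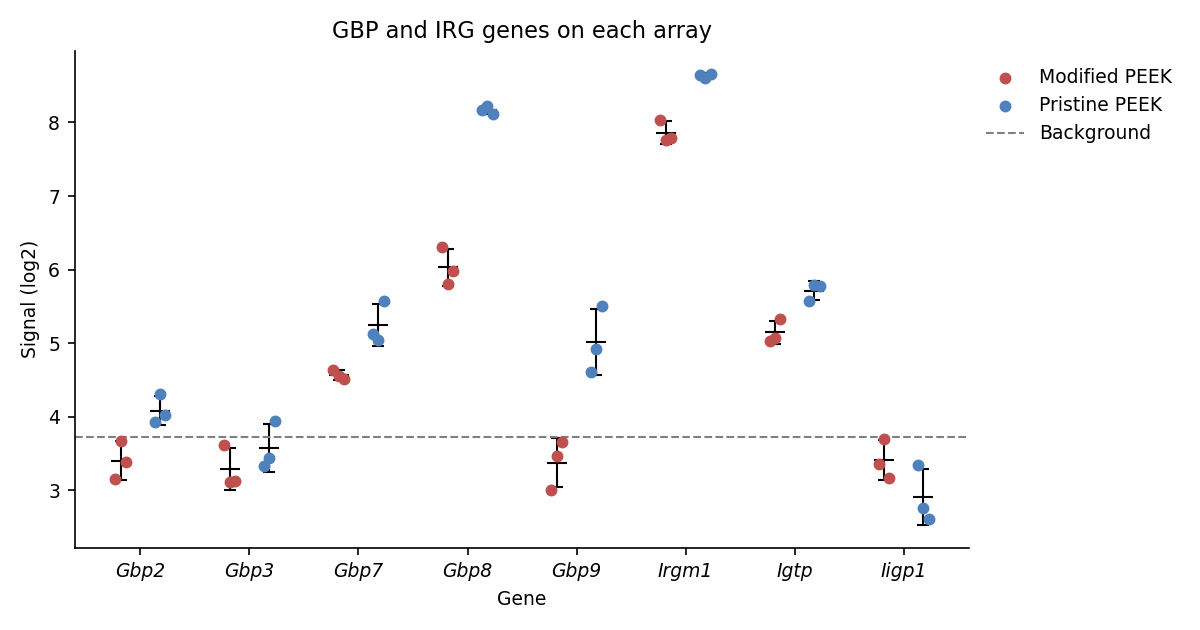
Log2 signal of the 8 measured genes on each of 3 modified PEEK and 3 pristine PEEK arrays, with modified PEEK to the left, horizontal ticks at the surface means, error bars of 1 SD (n = 3) and a dashed line at the background of 3.72. The modified PEEK arrays lie wholly below the pristine PEEK arrays for 6 genes, and the surfaces overlap for Gbp3 and Iigp1.

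The largest differences of the set were those of Gbp8 and Gbp9, which lie in the chromosome 5 cluster. Gbp8, a member of that cluster with a less studied role, had log2 signals of 6.30, 5.80 and 5.98 on modified PEEK, against 8.16, 8.22 and 8.12 on pristine PEEK. All arrays of modified PEEK lay far below all arrays of pristine PEEK, and the pristine PEEK arrays were nearly alike. Its means were 6.03 ± 0.25 and 8.17 ± 0.05 (SD, n = 3 each), a difference of -2.14 (SE 0.13), or 4.40-fold lower. Only 21 genes on the array had a larger fall. Gbp9, its neighbour, had 3.01, 3.46 and 3.66 on modified PEEK, against 4.61, 4.93 and 5.50 on pristine PEEK. No modified PEEK array reached the background, while all pristine PEEK arrays exceeded it. Its means were 3.38 ± 0.33 and 5.01 ± 0.45 (SD, n = 3 each), a difference of -1.64 (SE 0.24), which as a bound is at least 2.45-fold lower.

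The 3 measured GBPs of chromosome 3 had smaller differences than Gbp8 and Gbp9. Gbp2, a prenylated GBP that coats vacuoles and bacteria, had 3.15, 3.68 and 3.38 on modified PEEK, against 3.93, 4.30 and 4.02 on pristine PEEK. The surfaces did not overlap, but every modified PEEK array was below background and the pristine PEEK arrays were little above it. With means of 3.40 ± 0.26 and 4.08 ± 0.20 (SD, n = 3 each), the difference was -0.68 (SE 0.16), or at least 1.29-fold lower. Gbp7, which has been linked to the delivery of oxidase and autophagy proteins to bacteria, had 4.64, 4.56 and 4.51 on modified PEEK, against 5.13, 5.05 and 5.57 on pristine PEEK. The modified PEEK arrays were tightly grouped and pristine PEEK replicate 3 stood above the other two. The means of 4.57 ± 0.07 and 5.25 ± 0.29 (SD, n = 3 each) differed by -0.68 (SE 0.15), or 1.60-fold lower. Gbp3 had 3.62, 3.12 and 3.13 on modified PEEK, against 3.33, 3.44 and 3.95 on pristine PEEK. The surfaces overlapped and only pristine PEEK replicate 3 exceeded the background, so that the difference of -0.28 (SE 0.20) has no fold. Without 1 array it ran from -0.45, without modified PEEK replicate 1, to -0.10, without pristine PEEK replicate 3.

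Among the IRGs the regulatory Irgm1 and Igtp were called, while the effector Iigp1, below background, was not. Irgm1, which is known for its part in autophagy and in keeping effector IRGs off the membranes of the cell, had 8.04, 7.76 and 7.79 on modified PEEK, against 8.64, 8.60 and 8.66 on pristine PEEK. The pristine PEEK arrays were almost equal and all were above every modified PEEK array. Its means of 7.86 ± 0.15 and 8.64 ± 0.03 (SD, n = 3 each) differed by -0.77 (SE 0.11), or 1.71-fold lower. Igtp, also named Irgm3 and found on the endoplasmic reticulum and lipid droplets, had 5.04, 5.08 and 5.33 on modified PEEK, against 5.57, 5.79 and 5.78 on pristine PEEK. The surfaces did not overlap, and the gap between the nearest arrays was small beside that of Gbp8. Its means of 5.15 ± 0.16 and 5.71 ± 0.13 (SD, n = 3 each) differed by -0.57 (SE 0.12), or 1.48-fold lower.

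Iigp1, also named Irga6, is an effector that loads early onto the vacuole of Toxoplasma gondii, and its gene lies on chromosome 18. It had 3.36, 3.70 and 3.16 on modified PEEK, against 3.34, 2.77 and 2.62 on pristine PEEK. It was the 1 measured gene of the set with a positive difference, 0.50 (SE 0.21), but no array reached the background and the surfaces overlapped, so no fold is given and it was not called. Without 1 array its difference ran from 0.35, without pristine PEEK replicate 3, to 0.72, without pristine PEEK replicate 1.

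The calls differed in how many fits without 1 array kept them. In those smaller fits 548 to 1048 of all genes were lower and 594 to 903 higher, against 1004 and 1023 in the main fit. A lost call is therefore not by itself a sign that it rested on the array left out. The calls of Gbp8, Gbp9 and Irgm1 held in 6 of 6 fits that each left out 1 array, with differences of -2.27 to -2.02 for Gbp8, -1.84 to -1.39 for Gbp9 and -0.86 to -0.72 for Irgm1. Gbp2 kept its call in 1 of the 6, the fit without modified PEEK replicate 2. Gbp7 kept it in 4, losing it without modified PEEK replicate 2 or 3. Igtp kept it in 2, losing it without modified PEEK replicate 1 or 2 or pristine PEEK replicate 2 or 3. Over the 6 fits the differences ran from -0.82 to -0.55 for Gbp2, -0.78 to -0.52 for Gbp7 and -0.66 to -0.51 for Igtp. The number of genes of the set called lower was 5 without pristine PEEK replicate 1 and 4 without any other array. These fits reuse arrays on which the genes were chosen, so a kept call is a description and not support.

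The spike-in controls were on average dimmer on modified PEEK, with overlap between the surfaces. The 24 poly-A spike probe sets averaged 6.81, 6.55 and 6.77 on modified PEEK, against 6.78, 7.03 and 7.05 on pristine PEEK. Their part in the differences was not tested. When arrays were scaled to these spikes, the median of all genes moved to 0.26 and only Gbp8 (-1.89) and Gbp9 (-1.39) kept their calls. The other differences were then -0.53 for Irgm1, -0.43 for Gbp2 and Gbp7, -0.32 for Igtp, -0.04 for Gbp3 and 0.75 for Iigp1, and the median of the 8 genes was -0.43. Relative to the shifted median of all genes the values were -2.14 for Gbp8, -1.65 for Gbp9, -0.78 for Irgm1, -0.69 for Gbp2 and Gbp7, -0.58 for Igtp, -0.29 for Gbp3 and 0.49 for Iigp1. These relative values were fixed in advance, since the scaling shifts the differences of all genes by the same amount. They restate the main differences less the main median of all genes, 0.0088, and are no support for them.

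Among the arrays of 1 surface the genes did not move as a block. Taken as deviations from the surface mean, the widest spread was that of Gbp9, from -0.40 on pristine PEEK replicate 1 to 0.49 on pristine PEEK replicate 3. Pristine PEEK replicate 3 was above its surface mean for 5 of 8 genes and the highest of its surface for 4, among them Gbp3, Gbp7 and Gbp9. Pristine PEEK replicate 1 was below its surface mean for 6 of 8. On modified PEEK, replicate 1 was the highest for 4 genes, Gbp3, Gbp7, Gbp8 and Irgm1, and the lowest for Gbp2, Gbp9 and Igtp. No array was high or low for all 8. Gbp3 and Iigp1 had means below background on both surfaces, and Gbp2 and Gbp9 on modified PEEK. Their deviations there are limited by signal near the floor.

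**Figure D3:**
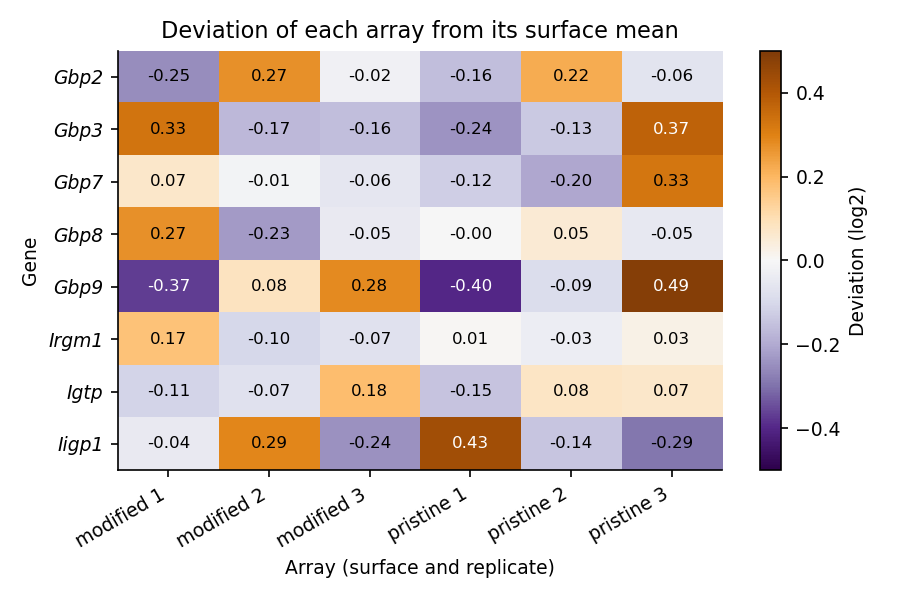
Deviation of each gene on each array from the mean of its surface, in log2 units, with modified PEEK arrays left of pristine PEEK arrays. Gbp9 has the widest range on pristine PEEK, -0.40 to 0.49, and no array column has the same sign for all 8 genes.

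The lists from here on were chosen with earlier results of these data known, so their counts and medians are a description. Other genes of the same families were tested with limma, and 9 of 18 listed were measured. Of these 3 fell on modified PEEK and 0 rose, beside 5.15% and 5.24% of all genes. The median difference was -0.27, beside 0.0088 for all genes. By unadjusted p 5 were lower and 0 higher, beside shares of 11.4% and 11.3% of all genes. Gvin1, a very large interferon-inducible GTPase, had 6.89, 6.68 and 6.93 on modified PEEK, against 8.21, 8.26 and 8.48 on pristine PEEK. The surfaces were well apart, with a difference of -1.48 (SE 0.12), or 2.80-fold lower, and an adjusted p of 0.000271. Irgm2, the third regulatory IRG, had 5.71, 5.08 and 5.66 on modified PEEK, against 6.20, 6.63 and 6.41 on pristine PEEK. Its difference was -0.93 (SE 0.19, adjusted p = 0.0161), and the call was lost without pristine PEEK replicate 2 (0.0586) or 3 (0.0554). Irgq, an atypical family member, had 5.80, 5.66 and 5.59 on modified PEEK, against 6.33, 6.02 and 6.12 on pristine PEEK. Its difference was -0.47 (SE 0.11, adjusted p = 0.0329). That call was kept in 1 of 6 fits without 1 array, the one without modified PEEK replicate 1, with adjusted p up to 0.116 in the others, and it was lost with spike scaling (0.396).

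The other measured family genes did not pass the test. Gbp4, in the chromosome 5 cluster beside Gbp8 and Gbp9, had 4.59, 4.49 and 4.38 on modified PEEK, against 4.73, 5.24 and 4.87 on pristine PEEK, a difference of -0.46 (adjusted p = 0.0867). Irgc1, best known from testis, differed by -0.27 (adjusted p = 0.191). Tgtp2 (-0.19), Gm12250 (-0.09) and F830016B08Rik (0.13) were below background on both surfaces, and Tgtp2 is uncertain because it has a near-identical copy, Tgtp1, that was not matched here. Gm1966, a relative of Gvin1, differed by -0.10. With spike scaling the signs of Tgtp2 (0.06), Gm12250 (0.15) and Gm1966 (0.14) turned. Gbp2b, Gbp6, Gbp10, Gbp11, Tgtp1, Gvin2, Gvin3, Gm4070 and Iigp1b were not analysed here.

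**Figure D4:**
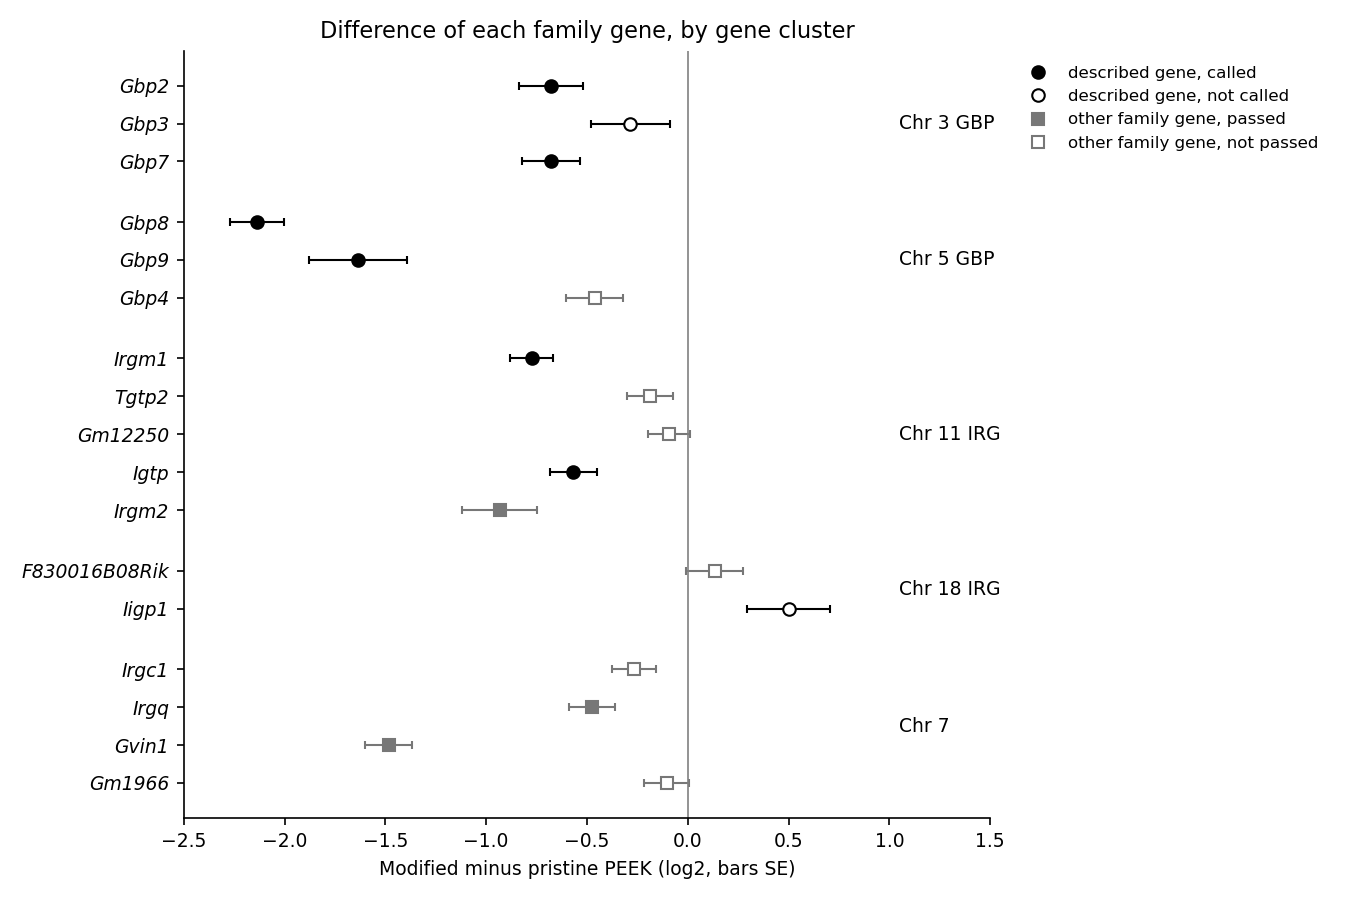
Difference of each GBP and IRG family gene, modified minus pristine PEEK in log2 units with the SE as bars, grouped by chromosome cluster. Circles are the 8 described genes, filled where called, and squares the 9 other family genes, filled where the adjusted p was under 0.05. Gbp8 (-2.14), Gbp9 (-1.64) and Gvin1 (-1.48) lie furthest to the left, and Iigp1 (0.50) furthest to the right.

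Of 12 measured genes of the interferon gamma pathway, which drives this family, 1 fell and 1 rose, beside 5.15% and 5.24% of all genes, and the median difference was -0.05. Jak2, the kinase bound to the interferon gamma receptor, had means of 7.62 ± 0.09 on modified PEEK and 8.29 ± 0.02 on pristine PEEK (SD, n = 3 each), a difference of -0.68 (adjusted p = 0.00258, and 0.108 with spike scaling). Ifngr1, a receptor chain, rose by 0.43 (adjusted p = 0.0200), and only the fit without modified PEEK replicate 1 among those leaving out 1 array kept that call, with values up to 0.0797. The other receptor chain, Ifngr2, differed by 0.10 (adjusted p = 0.622) and the repressor Irf2 by 0.25 (adjusted p = 0.176). Irf2 passed as higher in the limma fit with an intensity trend (adjusted p = 0.0316). Irf1, a transcription factor known to act at GBP promoters, had 6.96, 6.83 and 6.64 on modified PEEK, against 6.84, 6.78 and 6.97 on pristine PEEK. The surfaces overlapped, with a difference of -0.05 (adjusted p = 0.848). Ifng itself was below background on both surfaces, and Nlrc5 was not analysed here.

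Of 11 measured genes of the type I interferon pathway 3 fell, 0 rose (4 lower and 1 higher by unadjusted p) and the median was -0.05, beside 5.15% of all genes lower and 5.24% higher. Irf7, which amplifies type I interferon transcription, had means of 7.15 ± 0.37 on modified PEEK and 8.74 ± 0.17 on pristine PEEK (SD, n = 3 each), a difference of -1.59, or 3.01-fold lower (adjusted p = 0.00127). Usp18, an ISG15 protease that dampens interferon receptor signalling, fell by 1.27 on the log2 scale, with means of 8.34 ± 0.25 on modified PEEK and 9.61 ± 0.03 on pristine PEEK (SD, n = 3 each, adjusted p = 0.000802). Stat2 differed by -0.68 (adjusted p = 0.00550, and 0.111 with spike scaling). The receptor chain Ifnar2 (0.06, adjusted p = 0.786) and the kinase Tyk2 (-0.07, adjusted p = 0.737) did not pass. Ifnb1, the cytokine, had 3.68, 4.35 and 3.86 on modified PEEK, against 4.09, 3.99 and 3.95 on pristine PEEK, with overlap and an adjusted p of 0.919.

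Other interferon-induced genes moved in 1 direction where they passed. Of 20 measured 9 fell and 0 rose, beside 5.15% and 5.24% of all genes, and the median was -0.48. By unadjusted p in limma 11 of the 20 were lower and 1 higher, beside 11.4% and 11.3%. With spike scaling 5 fell and 1 rose. Oasl2 and Oasl1, which are related to the oligoadenylate synthetases, differed by -1.44 (adjusted p = 0.000207) and -1.34 (adjusted p = 0.000970). Ifit1, which binds viral RNA, differed by -1.33 (adjusted p = 0.000622) and Rsad2, the antiviral enzyme viperin, by -1.21 (adjusted p = 0.00282). The nucleotide hydrolase Samhd1 (-0.02, adjusted p = 0.940) and the immunoproteasome subunit Psmb8 (0.09, adjusted p = 0.680) did not pass.

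The lists that act together with GBPs and IRGs were read next. Of 17 measured genes for recognising vacuoles and conjugating ubiquitin-like proteins to them 6 fell and 0 rose, beside 5.15% and 5.24% of all genes. By unadjusted p 11 of the 17 were lower and 0 higher, beside 11.4% and 11.3%, and the median was -0.34. With spike scaling 3 fell. Sqstm1, the autophagy receptor p62, had means of 10.37 ± 0.06 on modified PEEK and 11.44 ± 0.05 on pristine PEEK (SD, n = 3 each), a difference of -1.06, or 2.09-fold lower (adjusted p = 0.000350). Map1lc3a, one of the LC3 proteins, differed by -0.94 (adjusted p = 0.00333), and Lgals8, a galectin that marks damaged vacuoles, by -0.83 (adjusted p = 0.00106). Calcoco1 differed by -0.76 (adjusted p = 0.00338, and 0.0570 with spike scaling). Gabarap (-0.22, adjusted p = 0.178) and Lgals3 (-0.24, adjusted p = 0.143), both at high signal, did not pass. Both passed as lower in the limma fit with an intensity trend (adjusted p = 0.000793 for Gabarap and 0.000518 for Lgals3). They also passed in the fit without the lowest 50% of genes (0.0443 and 0.0333).

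Of 10 inflammasome genes 4 fell and 0 rose, beside 5.15% and 5.24% of all genes, and the median was -0.21. By unadjusted p 5 of the 10 were lower and 0 higher, beside 11.4% and 11.3%. With spike scaling 1 fell. Casp4, the mouse caspase-11 that senses the lipopolysaccharide GBPs expose, had means of 7.65 ± 0.08 on modified PEEK and 8.73 ± 0.14 on pristine PEEK (SD, n = 3 each), a difference of -1.08, or 2.11-fold lower (adjusted p = 0.000615). Ninj1, which ruptures the membrane of dying cells, differed by -0.63 (adjusted p = 0.00420, and 0.161 with spike scaling). The nucleic acid sensor Zbp1 differed by -0.62 (adjusted p = 0.00507, and 0.172 with spike scaling). Nlrp3 differed by -0.43 (adjusted p = 0.0220), a call lost without any 1 of 5 arrays, modified PEEK replicate 1 being the exception, with values up to 0.0943. The pore-forming protein Gsdmd (-0.01, adjusted p = 0.962) and Casp1 (-0.30, adjusted p = 0.0878) did not pass. Casp1 passed as lower in the limma fits with an intensity trend (adjusted p = 0.00554) and without the lowest 50% of genes (0.0190).

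Of 7 measured oxidative and itaconate effectors 2 fell and 2 rose, beside 5.15% and 5.24% of all genes, with a median of -0.21. Acod1, which makes itaconate, had means of 6.64 ± 0.28 on modified PEEK and 8.33 ± 0.28 on pristine PEEK (SD, n = 3 each), a difference of -1.69, or 3.22-fold lower (adjusted p = 0.000934). Nos2, the inducible nitric oxide synthase, was below background on modified PEEK, with means of 3.45 ± 0.26 there and 4.45 ± 0.23 on pristine PEEK (SD, n = 3 each), so that it was at least 1.66-fold lower (adjusted p = 0.00634). The oxidase subunits Ncf1 (0.47, adjusted p = 0.0114) and Cybb (0.35, adjusted p = 0.0476) rose. The call of Ncf1 was lost when pristine PEEK replicate 2 (0.0546) or 3 (0.0556) was left out, and Cybb without any 1 array (0.0567 to 0.161). Rac2 (0.01, adjusted p = 0.957) and Cyba (-0.21, adjusted p = 0.301) did not pass. Cyba passed as lower in the limma fit with an intensity trend (adjusted p = 0.0387). Of 6 enzymes of CaaX prenylation, which attaches the lipid anchor of some GBPs, 0 passed in limma in either direction. By unadjusted p, where 11.4% of all genes were lower and 11.3% higher, 0 of these enzymes were lower and 1 higher. Their median was 0.07, and the endoprotease Zmpste24 (0.03) and the prenyltransferase subunit Pggt1b (0.25) were the pair at the highest signal.

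**Figure D5:**
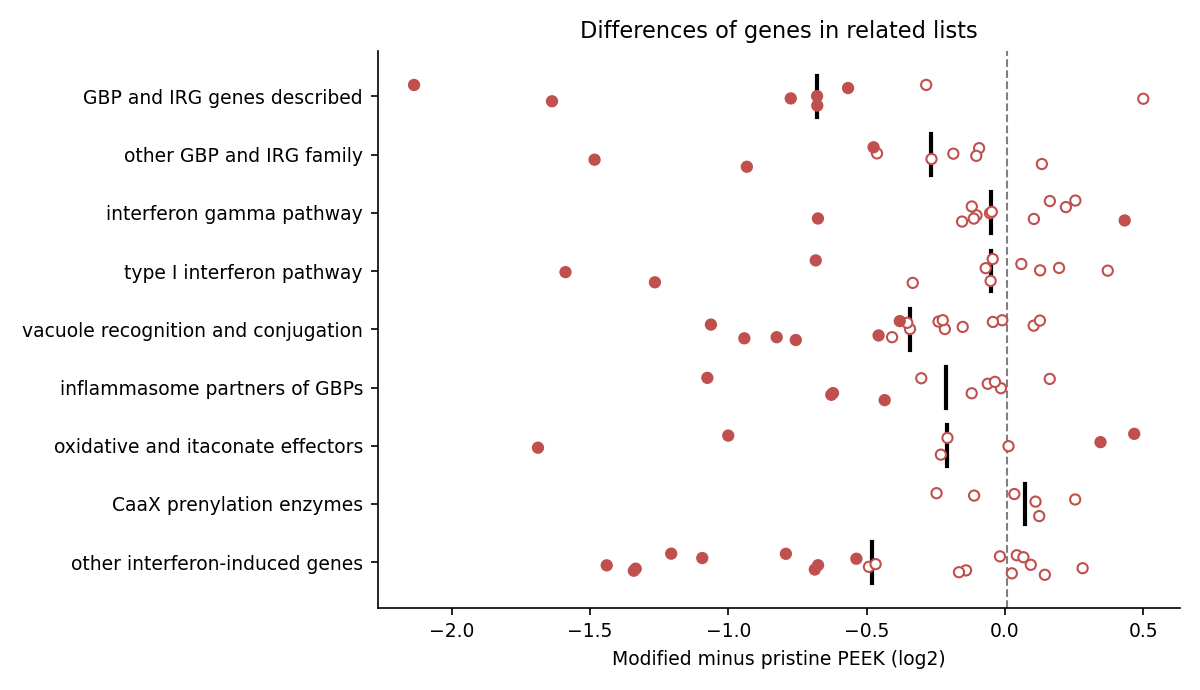
Difference of every measured gene of the 8 tested lists and of the described set, modified minus pristine PEEK in log2 units. Each point is a gene, filled where called, the bar is the median of the list and the dashed line the median of all genes, 0.0088. The median of the described set was -0.68. It was fixed in part by the choice of the set's genes on this contrast and is not compared with the lists. The lists too were chosen with earlier results of these data known. Their medians run from -0.48 for other interferon-induced genes to 0.07 for CaaX prenylation enzymes.

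The genes with the array profile most like that of the set were sought among 12531 genes above background. The measure was the root mean square distance, in log2 units over 6 arrays, to the mean of the set's profiles, each gene centred on its own mean. The 5 nearest were Trappc4 (distance 0.0418), Cmpk2 (0.0455), Plk3 (0.0518), Stam2 (0.0529) and Cat (0.0545), with differences between -0.77 and -0.71. Cmpk2 is an interferon-induced mitochondrial nucleotide kinase and Cat is catalase. Genes of the set had distances to their own mean profile from 0.0975 for Irgm1 to 0.697 for Gbp8 and 0.711 for Iigp1. Nothing is read from this order, since the 5 were picked as the nearest of 12531 genes. The profile itself came from genes chosen on this contrast.

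Genes next to the GBP and IRG clusters were compared as well. Of 20 flanking genes around 5 clusters, predicted and olfactory genes left aside, 1 fell and 0 rose, beside 5.15% and 5.24% of all genes. By unadjusted p in limma 4 were lower and 1 higher, beside 11.4% and 11.3%. The 1 was Smim3, a small membrane protein gene beside Iigp1, named after its value was seen. It had means of 4.54 ± 0.36 on modified PEEK and 6.15 ± 0.20 on pristine PEEK (SD, n = 3 each), a difference of -1.61 (adjusted p = 0.00130, and 0.00214 to 0.00989 without 1 array). None of the genes flanking the GBP clusters on chromosomes 3 and 5 passed, nor those beside Irgm1 and Igtp.

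Cell type markers were read beside these results. All 7 measured macrophage markers were above background on both surfaces, and their mean level was 10.26 to 10.30 on modified PEEK and 10.36 to 10.41 on pristine PEEK. Among them Fcgr1, an Fc receptor that is itself interferon-inducible, fell by 0.85 on the log2 scale (adjusted p = 0.00166). Itgam, the integrin CD11b, fell by 0.59 (adjusted p = 0.00544, and 0.213 with spike scaling), and Adgre1, the macrophage antigen F4/80, rose by 0.54 (adjusted p = 0.00669). The cells were of 1 macrophage line, and T and NK cell markers averaged 3.35 to 3.62 on modified PEEK and 3.44 to 3.66 on pristine PEEK. Above background on both surfaces were 3 of 7, and 0 passed in limma (0 by unadjusted p). The highest of these 7 was Cd4, with means of 4.24 on modified PEEK and 4.37 on pristine PEEK, against the background of 3.72. Of the B cell, fibroblast and epithelial markers 1 of 2, 1 of 3 and 2 of 3 were above background on both surfaces. None of these passed (1 fibroblast marker was lower by unadjusted p). The shares over all genes were 5.15% lower and 5.24% higher, or 11.4% and 11.3% by unadjusted p. The part of the macrophage markers in the differences of the set was not tested.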

How the data were processed

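Total RNA of 6 samples was measured on Affymetrix arrays, and the values analysed are log2 signals per probe set as deposited by the authors. The submitters' processing notes name RMA, with no version and no role. RMA commonly includes quantile normalization, which hides a difference in the amount of RNA per cell. The values, from 0.941 to 12.4, are the basis for taking the scale as log2. The sources used here do not give the build behind the array. Of 29129 features 19572 had 1 gene in the platform annotation and 0 had several. For 55 genes with more than 1 probe set, the one brightest on average was used, which left 19505 genes, and 0 columns of per-sample values went unused. The number of arrays limits the precision.

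The comparison used limma 3.58.1 (R 4.3.3), with lmFit and eBayes, two-sided, no covariate and no filter on dim probes, with Benjamini-Hochberg adjustment over all genes and a threshold of 0.05. Differences are modified minus pristine PEEK, and a bound is the brighter mean over the background of 3.72. The procedure was also run on simulated data with independent noise for each gene and array. Shared array effects and technical replicates were not simulated, so that run does not bear on them. The genes of the set and all lists were chosen with earlier results of these data known. Every gene of the set and of its families was named, and from each other list up to 4 that passed with the largest change, up to 2 of highest signal that did not pass, the 5 genes of most similar profile, and Ifng, Ifnb1 and Irf1. A gene that the rule also names is not reported here. Macrophage markers that passed were named too.

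Alternatives were repeated quantile normalization, centring on array medians, scaling to the poly-A spikes, an intensity trend, array weights, the mean of probe sets per gene, a replicate block, leaving out the lowest 25% or 50% of genes, and leaving out each array. Leaving out genes of the set below background on both surfaces was added after seeing the data. Promoter sequences are from RefSeq. Protein sequences were not used here.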

Additional observations from a re-analysis of the deposited data

How the results depend on the processing

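With 3 arrays per surface, signals near background limit Gbp2, Gbp3, Gbp9 and Iigp1 most. No called value changed sign. Named genes that had not passed did, 12 with spike scaling (Cyba, Gabarap, Gm12250, Gm1966, Gsdmd, Ifnb1, Ifng, Irf1, Lgals3, Samhd1, Tgtp2 and Tyk2, to between 0.0072 and 0.23) and 6 without 1 array (F830016B08Rik, Gsdmd, Ifnb1, Irf1, Rac2 and Samhd1), and the median of all genes was -0.013 without modified PEEK replicate 2 and -0.0027 without the lowest 50% of genes. Of the alternative values for the main comparisons 254 stayed within the limits used and 47 moved. The 254 overstate stability, since the intensity trend and replicate block cannot change the set median. The mean of probe sets cannot either, as each measured gene of the set had 1. A recount of the main fit, given below, is among the 254 too. Scaling to the poly-A spikes gave a set median of -0.43, 2 genes of the set lower, 290 lower and 1575 higher of all genes, 0 lower in the interferon gamma pathway, 3 in the vacuole list, 1 among inflammasome genes, and 5 lower and 1 higher among other interferon-induced genes. The intensity trend gave 1719 lower and 1586 higher of all genes, 10 lower in the vacuole list, 4 lower oxidative effectors and 2 higher in the interferon gamma pathway. Centring on array medians left 1 higher oxidative effector. Without the lowest 50% of genes 3 of the 8 genes were left (Gbp8, Irgm1 and Igtp), 3 of them called, with a median of -0.77, beside 1521 lower of all genes, 10 lower in the vacuole list and 1 higher among other interferon-induced genes. Leaving out the lowest 25% kept 7 of the 8, with 6 called. Leaving out the genes below background on both surfaces kept 6, with 6 called. That last count was fixed in advance, since it recounts the main fit without Gbp3 and Iigp1, which were not called. The causes were not tested, and the filters also left fewer genes in the fit. Leaving out 1 array in turn gave a set median of -0.75 to -0.62 and 4 to 5 genes called, 548 to 1048 lower and 594 to 903 higher of all genes, 0 to 1 higher in the interferon gamma pathway, 1 to 3 lower other family genes, and 0 to 1 higher oxidative effectors. The labels do not say whether samples with the same replicate number share more than that number. Their deviations correlated at -0.17, -0.16 and 0.07 over genes, beside -0.07 to 0.22 for unlike numbers. With 3 arrays per surface these values cannot decide whether samples were paired. With the replicate block 5 genes of the set were lower, Gbp7 not among them, with 622 lower and 646 higher of all genes, 1 lower other family gene, 0 higher in the interferon gamma pathway and 0 higher oxidative effectors.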
